A study of Mus musculus with 27 samples.

Results

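The genes of the cytosolic ribosomal proteins were followed through mouse heart development and pressure overload as 87 of the 57683 features of a deposited table of RNA-seq counts, which holds 20031 protein-coding features. A protein-coding feature was taken when its symbol was Rpl or Rps with a number and at most a short suffix, or was Rplp0, Rplp1, Rplp2 or Rpsa. Pseudogene symbols (-ps), Rpl3 and its muscle relative Rpl3l were left out. The 87 features carry 83 symbols, since Rpl41 stands on 4 of them and Rps13 on 2, and divide into 52 of the large subunit and 35 of the small subunit. Each Rpl41 and Rps13 feature, and the Rps27 feature, has only 1 block of exonic sequence. Whether these are the named genes or copies of them was not examined. Rps6kl1 met the rule by its letters alone: it encodes a kinase-like protein that is no part of the ribosome, and counts are also given without it. Fau and Gnb2l1 (Rack1), which supply ribosomal components under other names, fell outside the rule and are described separately.

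All hearts came from C57BL/6J mice and were sequenced from poly(A)-selected RNA without strand information, in 5 groups of 27 libraries. The embryonic group was 7 libraries of whole hearts at embryonic stage E13.5, with sex given as unknown. The unoperated adults were ventricular apexes, with 6 libraries at 6 weeks and 6 at 16 weeks. The operated adults were ventricular apexes at 12 weeks. Of these, 4 libraries were from mice with 4 weeks of pressure overload by transverse aortic constriction (TAC) and 4 from sham-operated mice. Adults were labelled male except for 1 TAC library labelled female. The embryonic samples hold the atria as well as the ventricles, so stage and region of the heart cannot be told apart.

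Total counts were 7543375 to 12646039 per E13.5 library, 2092270 to 2682955 at 6 weeks, 2164604 to 2642307 at 16 weeks, 10411417 to 11846819 in TAC hearts and 7958592 to 11561952 in sham hearts. The unoperated adults also carried another quality encoding in the labels (phred64 against phred33), so E13.5 hearts were set against the sham hearts too. All 8 cardiomyocyte markers were counted in every group, with sums in CPM (counts-per-million) of 21986.5 to 29041.4 in E13.5 hearts and 133561.6 to 156606.8 in TAC hearts, against 143788.6 to 171770.9 in sham hearts. In 7 libraries labelled male, 2 in each of the 6-week, 16-week and sham groups and TAC 3, counts over 4 Y-linked genes came to 0 to 2, while the TAC library labelled female (F1) had 389. Of the E13.5 libraries, 3 and 6 had 690 and 826 such counts and the others 0 to 6. The mix of sexes may therefore differ between the stages, and its part in any change was not tested. For the E13.5 and TAC comparisons, counts of called features and some single genes are given with and without the 8 libraries that go against their label. Paralog ratios and the comparison of 16 with 6 weeks are not given without them as a set.

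A ribosome is built from a small subunit, which reads the messenger RNA, and a large subunit, which joins amino acids into protein. Each subunit consists of ribosomal RNA and its own set of proteins, which the cell makes in matched amounts. The messenger RNAs of vertebrate ribosomal proteins typically begin with a short run of pyrimidines, the TOP sequence, through which the mTOR pathway controls their translation as a family. Ribosome number is known to grow with cell growth, both in the proliferating embryonic heart and in the enlarging adult cardiomyocyte.

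Sequence around the annotated start was read for these genes, since the pyrimidine run is the feature that ties them together at the level of the messenger. RefSeq (GRCm38.p6) gave at least 1 start for 63 of the 83 symbols, or 62 without Rps6kl1. Starts were matched by symbol, so those of Rps27, Rpl41 and Rps13 may not belong to the features counted under these names. The letters CTTTC or CTTTT lay within 30 bases of a start on the transcribed strand in 27 of these 62 genes (43.5%), against 2441 of 17491 coding genes (14%). On the other strand the shares were 17.7% and 14.2%, and on either strand 59.7% and 26%. CCGGAA, the core of the ETS and GABP sites, stood in the 250 bases before to 50 after the start of 35 of the 62 genes (56.5%) on either strand, against 20.9% of coding genes, and TATAAA in 7 (11.3%), against 14.8%. The pyrimidine pair shares its first letters and was counted once per gene, and a match is a description of letters, not a site in use. The windows below run from 15 bases before to 15 after the start of 6 genes with a match, shown in capitals and chosen because their values are described below.
Rps26 (chr10:128626492-128626521, minus strand): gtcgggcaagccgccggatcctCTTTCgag
Rpl38 (chr11:114668565-114668594, plus strand): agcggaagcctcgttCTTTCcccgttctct
Rpl12 (chr2:32961697-32961726, plus strand): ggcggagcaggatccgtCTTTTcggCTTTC
Rpl4 (chr9:64173372-64173401, plus strand): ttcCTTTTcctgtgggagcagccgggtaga
Rplp2 (chr7:141447636-141447665, plus strand): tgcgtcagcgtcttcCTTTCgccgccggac
Rps6 (chr4:86857353-86857382, minus strand): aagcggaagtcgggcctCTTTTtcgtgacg

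The same window is shown for Rps25, the gene called lower in TAC hearts, and for the paralogs Rpl7l1, Rpl22l1 and Rpl36al. None of them has CTTTC or CTTTT in this window, though Rps25 is among the 27 genes with either within 30 bases of a start. Other runs of pyrimidines, such as the one in the Rpl22l1 window, were not counted.
Rps25 (chr9:44407699-44407728, plus strand): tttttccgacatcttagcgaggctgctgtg
Rpl7l1 (chr17:46782642-46782671, minus strand): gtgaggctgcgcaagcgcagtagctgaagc
Rpl22l1 (chr3:28805493-28805522, plus strand): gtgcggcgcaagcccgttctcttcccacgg
Rpl36al (chr12:69184053-69184082, minus strand): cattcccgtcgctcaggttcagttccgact

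How well each gene could be counted varied widely. Ribosomal protein genes have many near-identical processed pseudogenes, and reads that fit both are split or lost in a way the sources used here do not describe. In 80 of the features, a median of 64.2% of the 50-base windows of the coding transcripts occurred in no other gene's transcripts in GENCODE release M21, pseudogene transcripts included. The share was 97.2% for Rps3, 93.7% for Rpl8 and 83.5% for Rpl4, but 15.4% for Rps6 and 4.91% for Rpl35, and it was below 50% for 27 features. Total counts varied widely too, with 113885 for Rpl4 and 96814 for Rpl8 over all libraries, against 297 for Rps6, whose protein is the classic substrate of the S6 kinases. They did not always follow the share: Rplp1 had 72027 counts at 40.0%, but Rps15a 858 at 94.6% and Rpl24 198 at 85.4%. The relation of counts to unique windows was not tested. Levels of genes with few unique windows are uncertain, and comparisons between groups assume that the loss of shared reads is alike in all of them.

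Of the 87 features, 62 had all their exonic bases to themselves and 9 had under 50% of them to themselves (Rps4y2, Rps28, Rpl9, 1 Rpl41 feature, Rpl11, Rps18, Rpl10a, Rpl35 and Rps19). Rps4y2, Rps28, Rps27 and the same Rpl41 feature had no count in any library. Together with Rpl9, Rpl39l and the other Rpl41 features, they make up the 9 that were tested in no comparison. The 5 features with the most counts held 47.3% to 49.8% of the family's counts in every group, and the first 10 held 70.9% to 74.5%. Rpl4, Rpl8, Rplp0, Rps3 and Rplp1 were among the genes that filled the first 5 places in 1 or more of the 5 groups. Rpl4 lines the tunnel by which the new protein leaves the ribosome, Rpl8 lies near the peptidyl transferase centre, and Rps3 sits at the entry of the messenger channel.

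Per kilobase of own exonic sequence, Rplp1 ranked first in E13.5 hearts at 806 CPM per kilobase, above Rps26 at 635, Rpl8 at 618 and Rpl4 at 580. TAC hearts had 955 for Rplp1, 742 for Rpl8 and 556 for Rps15, and sham hearts 642, 466.1 and 354 for the same genes. Unoperated adults had Rpl8 first, at 467 at 6 weeks and 494 at 16 weeks, ahead of Rplp1 at 383 and 455. In E13.5 hearts the SDs of these levels were 101 for Rplp1, 42.7 for Rps26, 31.7 for Rpl8 and 37.9 for Rpl4 (n = 7), so that Rps26 and Rpl8 did not stand apart by more than their SD, while Rpl4 lay below Rpl8 by about 1 SD.

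The family as a whole took 0.789% ± 0.0369 (SD, n = 7) of all counts in E13.5 hearts, with libraries between 0.735% and 0.833%. The share was 0.301% ± 0.0150 at 6 weeks and 0.302% ± 0.00732 at 16 weeks (n = 6 each). In the TAC hearts it was 0.397%, 0.444%, 0.440% and 0.380%, against 0.312%, 0.321%, 0.317% and 0.297% in the sham hearts. Every TAC library thus lay above every sham library, and every E13.5 library above every adult one. Large-subunit genes supplied 53.5% to 58.9% of these counts in every library. Mitochondrially encoded transcripts, which take counts from the rest, made up 1.35% to 1.95% of TAC libraries and 1.77% to 6.44% of sham libraries. As a share of nuclear coding counts the family stood at 0.436% ± 0.0329 in TAC hearts and 0.342% ± 0.00879 in sham hearts (n = 4 each). In bulk tissue, fewer cells of a type and less RNA per cell cannot be told apart, here or in any comparison below.

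**Figure D1:**
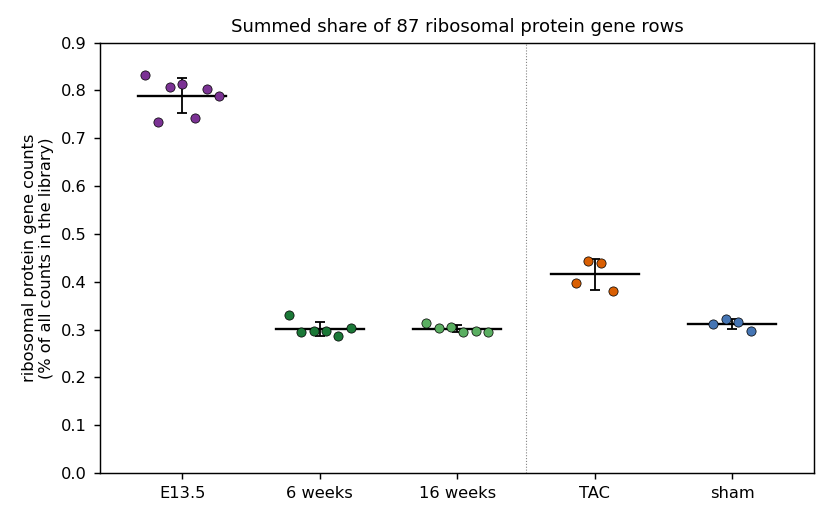
Counts on the 87 features as a percentage of all counts, 1 point per library, by group, with the mean of each group as a long line and the SD as bars. The 7 E13.5 libraries lie between 0.735% and 0.833%, the 4 TAC libraries between 0.380% and 0.444% and the 16 other adult libraries between 0.286% and 0.330%.

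Comparing E13.5 hearts with the 12 unoperated adult libraries asks which of these messengers change in abundance between the growing embryonic and the mature heart. Levels below are CPM scaled by the trimmed mean of M values (TMM), and changes are log2 fold changes with standard errors from edgeR's quasi-likelihood test, called at a Benjamini-Hochberg adjusted p under 0.05 over all features tested. Of the 87 features, 59 passed the filter on low counts, and 45 of them were higher and 5 lower in E13.5 hearts, with 9 not called. The background was high, since 83.8% of all 12766 features tested were called, 44.1% higher and 39.7% lower. The median log2 change over the 59 was 0.97, against 0.07 over all features. Groups did not overlap for 31 that were higher and 2 that were lower, against 28.2% and 26.3% of all features. Without Rps6kl1 the count was 45 higher and 4 lower of 58, and without the libraries that go against their sex label 47 were higher and 5 lower of 61, with a median of 0.997. The share of all features called in that smaller fit is not given here, so its counts have no background beside them.

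Against the sham hearts, whose depth was closer to that of the E13.5 hearts, 78 features passed the filter and 53 were higher and 4 lower in E13.5 hearts, with 21 not called. Among all 18677 features tested, 76.3% were called, 40.7% higher and 35.6% lower. The median was 0.69, against 0.12 over all features, and groups did not overlap for 41 that were higher and 3 that were lower (35.8% and 28% of all features). Without the sham libraries that go against their sex label, 43 were higher and 3 lower of 78, with a median of 0.66, and the share of all features is again not given. Both comparisons use the same E13.5 libraries, so their calls are not independent. Large-subunit features were higher in 26 and lower in 3 of 34 tested against unoperated adults (median 1.03), and higher in 31 of 46 against sham (median 0.66). Small-subunit features without Rps6kl1 were higher in 19 and lower in 1 of 24 (median 0.84), and higher in 22 and lower in 3 of 31 against sham (median 0.82). A filter on low counts passes genes through the group where they are high. Of the 26 features that averaged at least 20 CPM over all 27 libraries, which passed everywhere, 22 were higher and 1 lower against unoperated adults, and 19 and 2 against sham. That average includes the E13.5 libraries, so this choice has the same limit. Rps4x, for example, averaged 39.0 CPM in E13.5 hearts and 13.1 to 16.2 CPM in the other groups.

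The small-subunit gene Rps26 (mm9 chr10:128061593-128063556, minus strand, 4 exons) lines the exit of the messenger channel, and its human counterpart is mutated in Diamond-Blackfan anaemia. Its lowest, median and highest levels were 246, 269.9 and 299 CPM in E13.5 hearts, 52.0, 66.3 and 72.5 CPM at 6 weeks and 67.3, 74.6 and 92.8 CPM at 16 weeks. All E13.5 libraries lay above all adult ones, with a log2 change of 1.98 ± 0.07 (edgeR adjusted p = 5.98e-22). Sham hearts had 77.7, 64.0, 82.2 and 76.4 CPM, and the log2 change of E13.5 hearts against them was 1.78 ± 0.08 (edgeR adjusted p = 3.14e-14).

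Rpl4 (mm9 chr9:64021181-64026323) had 731, 808 and 888 CPM in E13.5 hearts as lowest, median and highest, against 342, 362 and 444 CPM at 6 weeks and 295, 315 and 399 CPM at 16 weeks. The groups did not overlap, and the log2 change was 1.19 ± 0.06 (edgeR adjusted p = 4.46e-17). Rpl8 (mm9 chr15:76734515-76736742) moved less: its E13.5 libraries ran from 473 through a median of 521 to 562 CPM, against 343, 395 and 427 CPM at 6 weeks and 378, 416 and 461 CPM at 16 weeks. Its log2 change of 0.36 ± 0.05 passed the test as well (edgeR adjusted p = 5.33e-07), without overlap of the groups. For Rps3, also abundant, the log2 change against unoperated adults was 0.47 ± 0.05, called higher by edgeR. The family thus did not shift by 1 common factor, although no test of the spread between its genes was run.

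**Figure D2:**
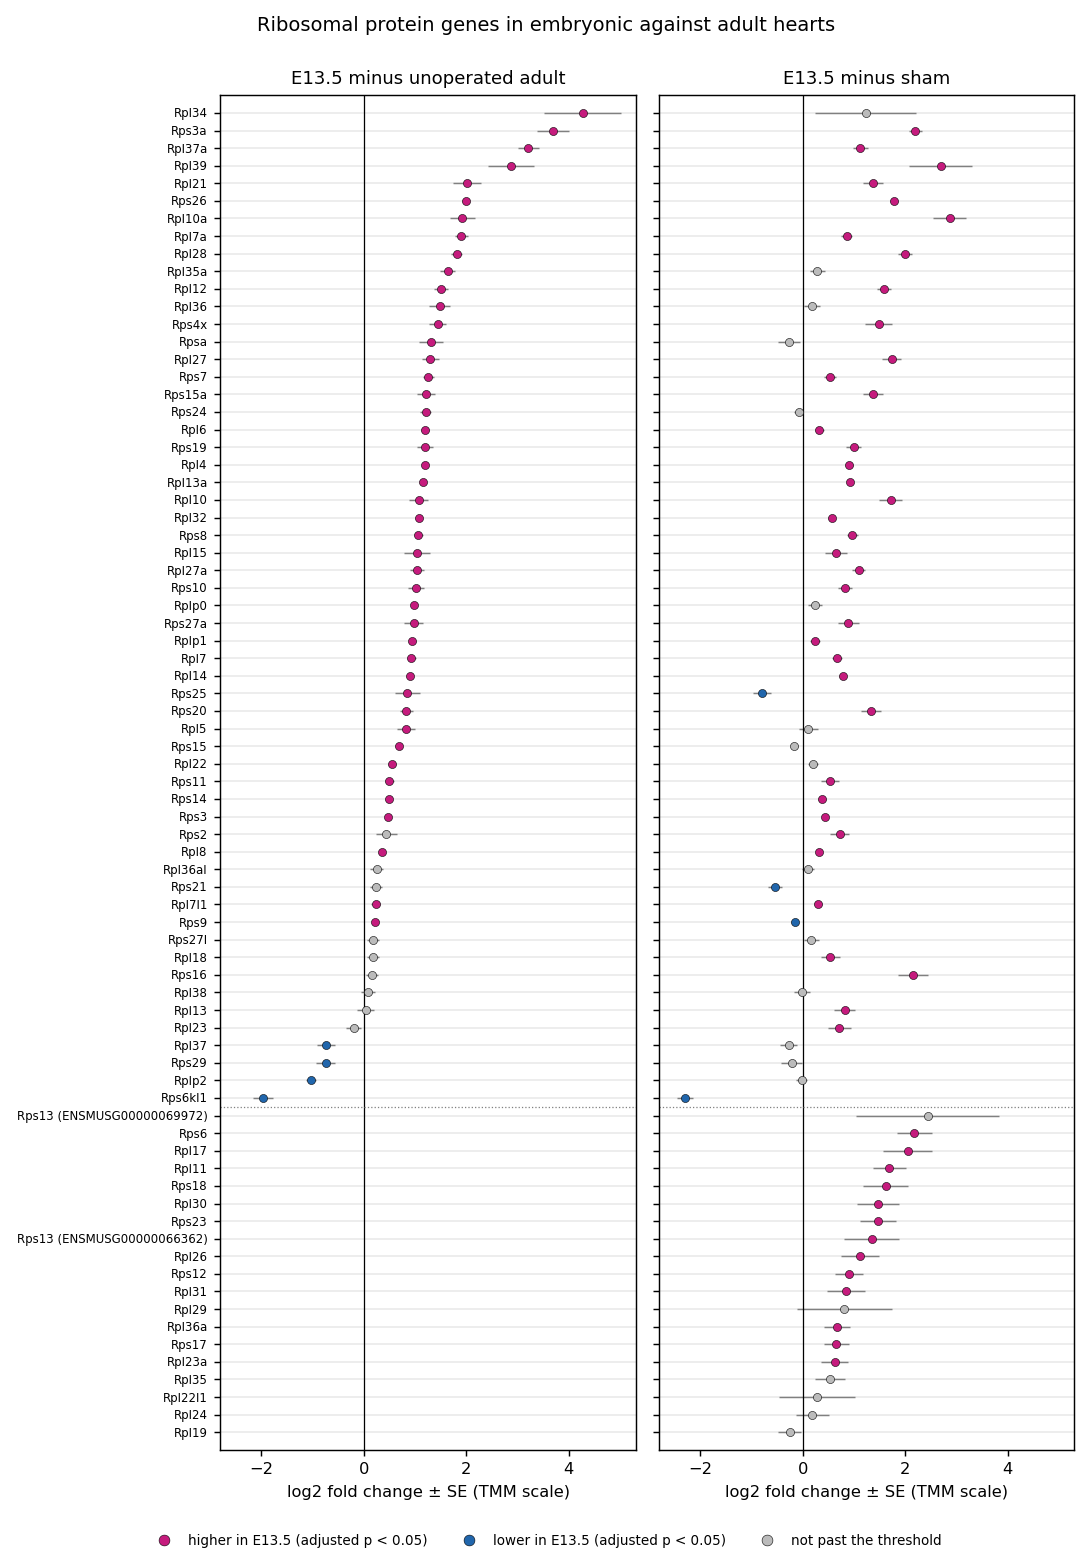
Log2 fold change of the tested features in E13.5 hearts, against unoperated adults (left) and against sham hearts (right), with standard errors as bars and colour for features past an adjusted p of 0.05; features below the dotted line were tested only against sham. Most points lie to the right of 0, with medians of 0.97 and 0.69 over the family, and Rplp2, Rpl37 and Rps29 lie to the left of 0 in the comparison with unoperated adults.

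The stalk of the large subunit, which brings elongation factors to the ribosome, consists of Rplp0 and its partners Rplp1 and Rplp2 on a base formed with Rpl12. Rplp2 went the other way from the rest of the stalk. It had 32.7, 41.6 and 50.2 CPM in E13.5 hearts (lowest, median and highest), against 51.6, 84.0 and 96.0 CPM at 6 weeks and 68.7, 89.6 and 99.2 CPM at 16 weeks. The log2 change was -1.03 ± 0.10 (edgeR adjusted p = 1.03e-10), and the groups did not overlap. Sham hearts had only 45.1, 40.8, 33.4 and 36.6 CPM, so that E13.5 and sham hearts overlapped, with a log2 change of -0.02 ± 0.11 (edgeR adjusted p = 0.838).

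Rplp0, Rplp1 and Rpl12 were higher in E13.5 than in unoperated adult hearts, with log2 changes of 0.98 ± 0.06, 0.95 ± 0.07 and 1.51 ± 0.14 and no overlap of the groups. Against sham, Rpl12 was higher by 1.58 ± 0.14 (edgeR adjusted p = 3.2e-09). Rplp1 passed barely (0.23 ± 0.10, edgeR adjusted p = 0.0486) and lost the call without the libraries that go against their sex label (edgeR adjusted p = 0.407), as it did without any 1 of E13.5 1, 2, 3 and 7 and sham 2, 3 and 4 (edgeR adjusted p from 0.055 to 0.215), with relative log expression scaling (edgeR adjusted p = 0.061) and by DESeq2 (adjusted p = 0.0622). Rplp0 did not pass (0.24 ± 0.14, edgeR adjusted p = 0.116), though it did by limma-voom (adjusted p = 0.046) and with all 27 libraries in 1 fit (edgeR adjusted p = 0.00397). Its sham libraries split into 427 and 421 CPM in sham 2 and 3, whose Y-linked counts go against the label, and 277 and 266 CPM in sham 1 and 4. Without both its log2 change against sham was 0.57 (edgeR adjusted p = 0.000135), and it passed without sham 2 alone or sham 3 alone (edgeR adjusted p = 0.0253 and 0.0456).

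The largest changes against unoperated adults were in genes of low count. Rps3a, a small-subunit protein, had 20.5, 22.2 and 25.3 CPM in E13.5 hearts, against 0, 4.15 and 9.99 CPM at 6 weeks and 0, 0.684 and 1.40 CPM at 16 weeks, a log2 change of 3.69 ± 0.31 (edgeR adjusted p = 3.32e-10). Rpl37a had 9.98, 10.8 and 14.99 CPM, against 0.397, 0.485 and 2.29 CPM at 6 weeks and 0.498, 1.59 and 2.80 CPM at 16 weeks (log2 change 3.21 ± 0.21, edgeR adjusted p = 9.46e-15). Neither gene's E13.5 libraries overlapped the adult ones. Against sham, the log2 changes were smaller, at 2.19 ± 0.13 for Rps3a and 1.12 ± 0.15 for Rpl37a, and both were called by edgeR. Rpl39, a small protein of the exit tunnel, was higher by 2.87 ± 0.44 and 2.69 ± 0.61 in these comparisons, and Rpl21 by 2.01 ± 0.27 and 1.37 ± 0.20.

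Against sham, the largest changes among features called by edgeR were those of Rpl10a, Rpl39, Rps3a, Rps6, Rps16 and Rpl17, from 2.05 to 2.86 on the log2 scale, all higher in E13.5 hearts. Rps6 averaged 2.47 CPM in E13.5 and 0.514 CPM in sham hearts, and Rpl17 0.816 and 0.184 CPM. Their sham values rest on very few reads, and both passed the filter through the E13.5 libraries, so their place in this order has the filter's limit. Rpl10a, the protein of the mobile L1 stalk, had 6.84, 8.95 and 15.8 CPM in E13.5 hearts and 1.996, 1.27, 1.08 and 0.819 CPM in sham hearts without overlap, although only 31.1% of its exonic bases are its own. Rps16, which touches the transfer RNA in the P site, had 28.0, 32.5 and 45.9 CPM in E13.5 hearts and 13.53, 6.45, 4.95 and 4.09 CPM in sham hearts (log2 change 2.15 ± 0.30, edgeR adjusted p = 5.5e-05). Its unoperated adults reached 27.3 to 42.7 CPM at 6 weeks and 23.4 to 38.3 CPM at 16 weeks, which overlapped the E13.5 hearts and gave a log2 change of 0.16 ± 0.11 (edgeR adjusted p = 0.18). The sham level of Rps16 was thus the low one, and no test of sham against unoperated adults was run.

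Few genes were lower in E13.5 hearts. Against unoperated adults they included, beside Rplp2 and Rps6kl1, Rpl37 (-0.74 ± 0.17) and Rps29 (-0.74 ± 0.19), each called by edgeR but with overlapping groups. Rpl37 did not pass against 6 weeks alone (-0.41, edgeR adjusted p = 0.116), and both missed the threshold with library totals as the scale. Against sham they were, apart from Rps6kl1, the small-subunit genes Rps25 (-0.79 ± 0.17), Rps21 (-0.55 ± 0.13) and Rps9 (-0.16 ± 0.06). Rps25 (mm9 chr9:44215797-44218272), which is needed for initiation at several viral internal ribosome entry sites, had 3.02, 4.35 and 4.83 CPM in E13.5 hearts and 6.87, 4.84, 9.43 and 6.14 CPM in sham hearts. The lowest sham library stood just above the highest E13.5 one, and the edgeR adjusted p was 0.000372. Unoperated adults had only 1.19 to 4.59 CPM at 6 weeks and 0 to 3.54 CPM at 16 weeks, and against them Rps25 was higher in E13.5 hearts by 0.85 ± 0.24 (edgeR adjusted p = 0.00192). The directions for Rps25, Rps21 and Rps9 against sham turned to higher when library totals were used as the scale, which moved the median of all features to 0.95. Rps9 was also not called with upper-quartile scaling, with no filter (-0.09, edgeR adjusted p = 0.362) or with all 27 libraries in 1 fit (-0.07, edgeR adjusted p = 0.372), and did not pass without the libraries against their sex label (edgeR adjusted p = 0.0705), without E13.5 5 (0.0572) or without sham 2 (0.0733).

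Rpl5 and Rpl11, which form the particle with 5S ribosomal RNA and bind Mdm2 when assembly fails, had low counts. Rpl5 had 3.11, 3.81 and 4.13 CPM in E13.5 hearts, against 2.03, 2.34 and 2.78 CPM at 6 weeks and 0.885, 1.97 and 2.33 CPM at 16 weeks (log2 change 0.82 ± 0.18, edgeR adjusted p = 9.55e-05). Its change against sham did not pass (0.11 ± 0.18, edgeR adjusted p = 0.598). Rpl11 passed the filter only against sham, where it was higher by 1.69 ± 0.33 (edgeR adjusted p = 0.000113). Of 18 genes whose human counterparts are linked to Diamond-Blackfan anaemia, 9 were higher and 1 lower of 11 tested against unoperated adults, and 11 higher of 16 tested against sham. Their shares called higher, 81.8% and 68.8%, were near the 76.3% and 67.9% of the whole family, of which they are part.

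The family was split by the letters CTTTC or CTTTT near the start, and the difference between the sets was not tested. The set without these letters holds genes with other runs of pyrimidines, such as Rpl14 and Rps9. Features with the letters were higher in 17 and lower in 1 of 21 against unoperated adults (median 1.19), and those without in 16 and 1 of 23 (median 0.68). Against sham the counts were 17 and 1 of 25 with the letters (median 0.86) and 20 and 2 of 33 without (median 0.71). Features with at least 50% unique windows were higher in 33 and lower in 5 of 45, and the others were higher in 12 of 14. Against sham the counts were 32 and 3 of 50 for those with more unique windows and 20 and 1 of 26 for the others. Short genes in general moved the opposite way. Coding genes outside the family with under 1000 exonic bases had a median log2 change of -0.49 against unoperated adults and -0.50 against sham, with 28.6% and 28.2% higher, while family members of that length had medians of 0.76 (13 higher and 3 lower of 20) and 0.59 (18 higher and 2 lower of 30).

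Other cell types moved with the stage. In E13.5 hearts 9 of 9 measured markers of dividing cells were higher, summing to 853.0 to 1021.4 CPM, against 3.05 to 21.5 CPM at 6 weeks, 1.89 to 7.26 CPM at 16 weeks and 19.0 to 25.5 CPM in sham hearts. The 13 erythroid markers summed to 14159.8 to 54020.3 CPM in E13.5 hearts and to 306.5 to 1495.6 CPM in unoperated adult and sham hearts, where Hbb-y and Hba-x were at 0, and all 13 were higher against sham. The 7 epicardial markers were also all higher, and all 8 cardiomyocyte markers lower. All 9 macrophage markers tested were lower against unoperated adults and 9 of 10 against sham, with sums of 140.3 to 179.5 CPM in E13.5 hearts, 304.7 to 477.2 CPM in unoperated adults and 475.0 to 530.3 CPM in sham hearts. Of 9 endothelial markers 6 were lower and 2 higher in both comparisons, summing to 1203.9 to 1446.7 CPM in E13.5 hearts, 1815.7 to 2035.4 CPM in unoperated adults and 2186.6 to 2324.2 CPM in sham hearts. Of 10 fibroblast markers 6 were higher and 4 lower against unoperated adults, and 6 and 3 against sham, summing to 2872.7 to 5198.9 CPM in E13.5 hearts, 1384.9 to 2580.5 CPM in unoperated adults and 1270.5 to 1411.6 CPM in sham hearts. Their part in the changes of the ribosomal protein genes was not tested.

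**Figure D3:**
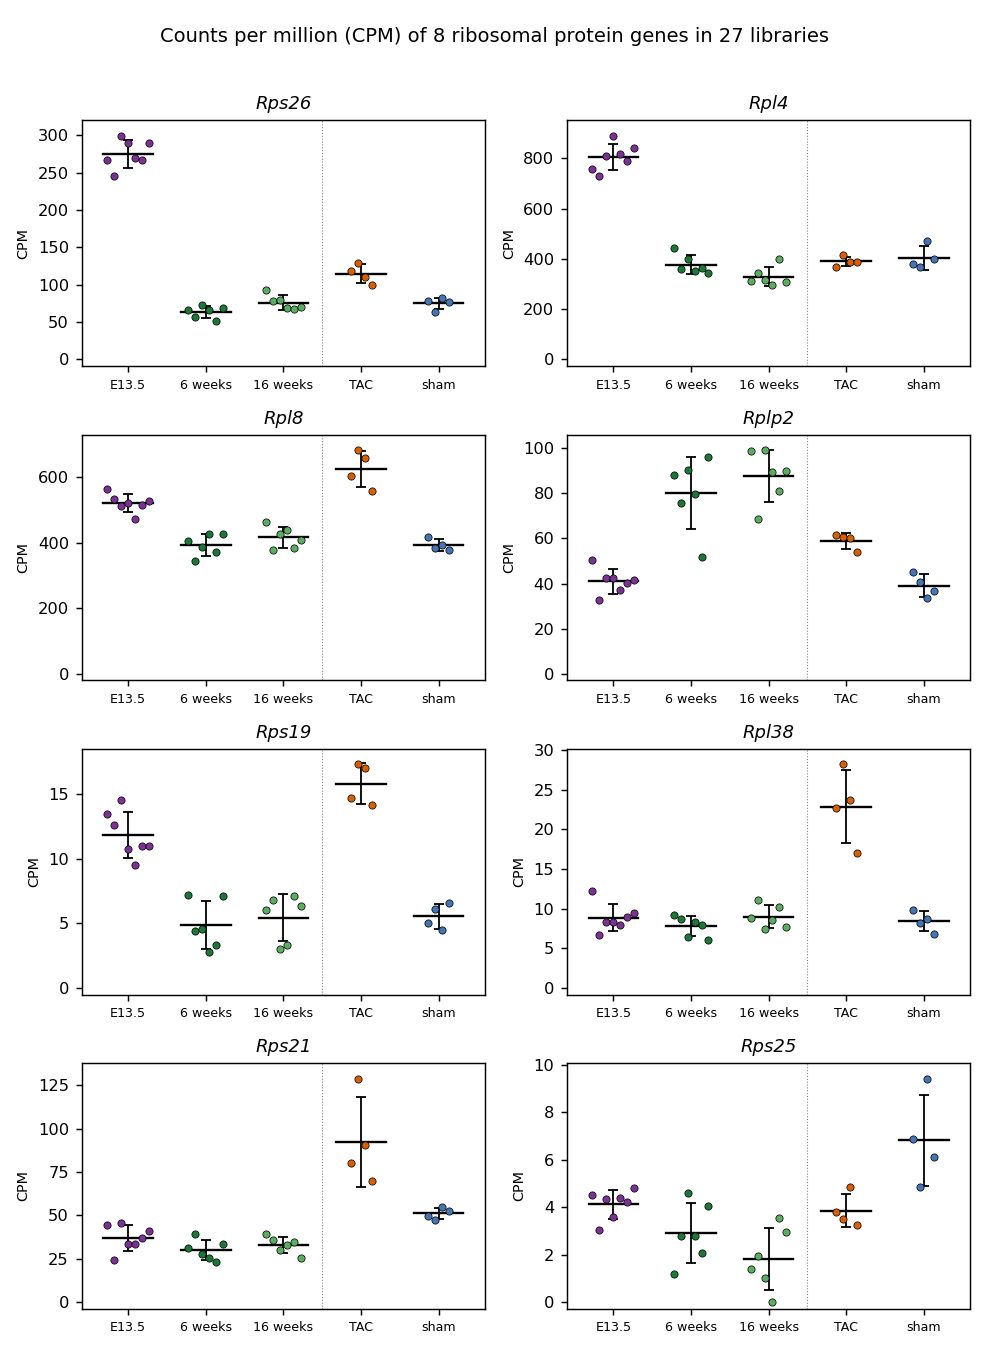
CPM in every library for Rps26, Rpl4, Rpl8, Rplp2, Rps19, Rpl38, Rps21 and Rps25, by group, with mean and SD. Rps26 and Rpl4 stand highest in E13.5 hearts, Rplp2 stands highest in unoperated adults, and Rpl8, Rps19, Rpl38 and Rps21 stand highest in TAC hearts.

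A few genes differed so much within a group that its mean says little. Rpl34 (mm9 chr3:130429749-130433316, minus strand), a large-subunit protein, had 33.4, 4.33, 28.7, 69.8, 35.0, 64.0 and 3.79 CPM in E13.5 libraries 1 to 7. It had 29.8, 44.5, 31.7 and 39.3 CPM in TAC hearts and 2.44, 24.2, 28.9 and 1.94 CPM in sham hearts, where the high libraries were again sham 2 and 3. All unoperated adults stood at 3.78 CPM or less, which gave a log2 change of 4.27 ± 0.74 for E13.5 hearts (edgeR adjusted p = 4.62e-05). Rpl29 (mm9 chr9:106331785-106333899), also of the large subunit, had 12.1 and 5.10 CPM in sham 2 and 3 and 0.111 and 0.307 CPM in sham 1 and 4, and ranged from 1.77 to 13.0 CPM in E13.5 hearts. Neither Rpl29 nor Rpl34 passed in E13.5 or TAC hearts against sham. Sham 2 and 3 go against their sex label, and no label tells what else sets them apart.

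**Figure D4:**
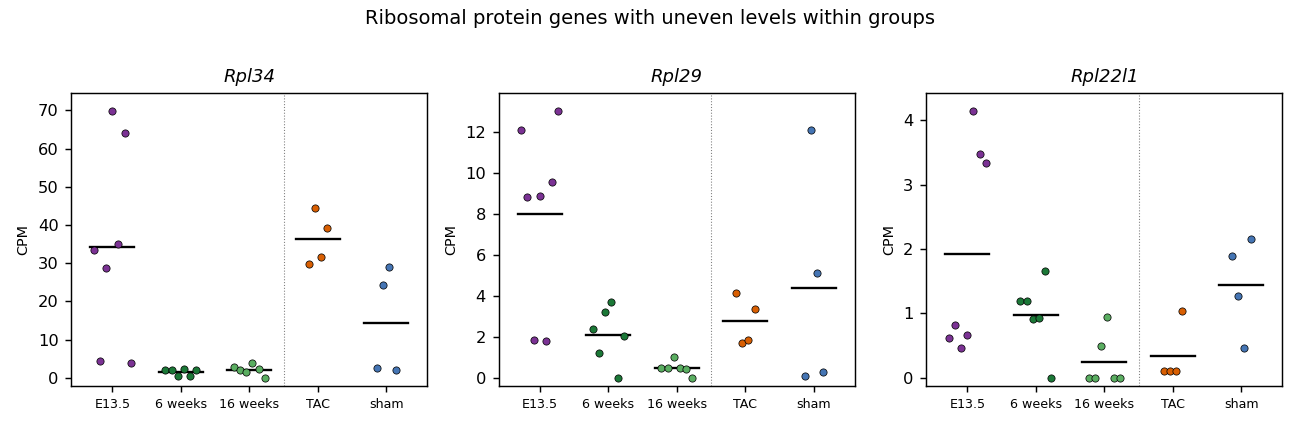
CPM in every library for Rpl34, Rpl29 and Rpl22l1, by group, on a linear axis, with the group mean as a line. Rpl34 and Rpl29 fall into high and low libraries within the E13.5 and sham groups, and Rpl22l1 does so within the E13.5 and TAC groups.

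Paralogs offer alternative versions of a ribosomal protein, and the ratio of paralog to parent within a library does not depend on scaling. Since 0.5 was added to each count, ratios of very low counts do depend on depth, which was lowest in unoperated adults. Of 8 pairs, 3 could be tested in all 4 comparisons, 12 tests in all. Rpl39l and the feature named Rps27, the parent of Rps27l, had too few counts. The paralogs of Rpl10, Rps4x and Rpl6 were not analysed here. The ratio of Rpl7l1, a relative of the large-subunit gene Rpl7 that is tied to ribosome assembly, to Rpl7 was lower in E13.5 hearts. Its mean log2 value was -0.51 ± 0.13 (SD, n = 7) in E13.5 hearts and 0.18 ± 0.36 (n = 12) in unoperated adults, a difference of -0.70 (exact permutation test, two-sided, p = 0.000238, adjusted over the 12 tests p = 0.00286). Rpl7 itself was higher by 0.92 ± 0.09 and Rpl7l1 by 0.23 ± 0.08, both called by edgeR, though Rpl7l1 did not pass against 6 weeks alone (0.18, edgeR adjusted p = 0.0877). Against sham, with a mean of -0.14 ± 0.15 (n = 4), the difference was -0.37 (exact permutation p = 0.0121, adjusted p = 0.0485). Without any 1 of the 4 sham libraries the test is too small to pass after adjustment.

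Rpl36al, an autosomal relative of Rpl36a, rose relative to its parent in E13.5 hearts, with log2 ratios of 2.79 ± 0.41 (SD, n = 7) in E13.5 hearts and 2.06 ± 0.56 (n = 12) in unoperated adults (difference 0.73, exact permutation p = 0.0052, adjusted p = 0.0312). The sham hearts had 3.27 ± 0.47 (n = 4), and the difference of -0.48 against them did not pass (exact permutation p = 0.0848, adjusted p = 0.17). The direction thus depended on which adult hearts were used. Rpl36a was low, at a mean of 3.32 CPM at 6 weeks and 2.81 CPM at 16 weeks, with 14.5% unique windows. Rpl22l1, which Rpl22 represses in mouse cells, had at most 4.14 CPM in any library, against 43.7 CPM or more for Rpl22. Its ratio passed in no comparison after adjustment, and in TAC hearts it could not have: 4 against 4 libraries allow no exact p below 0.0286, which beside the other tests adjusts to 0.0686. In TAC hearts its log2 ratio was -8.52 ± 1.47, against -5.67 ± 0.86 in sham hearts (n = 4 each), a difference of -2.85 (exact permutation p = 0.0571, adjusted p = 0.137), with 0.112, 0.107, 0.107 and 1.04 CPM in TAC hearts and 1.89, 1.27, 0.464 and 2.15 CPM in sham hearts. Rps27l, a p53-inducible relative of Rps27, was called by edgeR in no comparison with TMM scaling, the filter and all libraries. Against unoperated adults it was called higher in E13.5 hearts with upper-quartile scaling (0.30, edgeR adjusted p = 0.0214), library totals (0.81), no filter (0.36) and without E13.5 2 (0.25). Against sham it was called higher with upper-quartile scaling (0.33, edgeR adjusted p = 0.0428), library totals (0.99) and without sham 1 (0.34). It could not be set against its parent, since the only Rps27 feature of the family, 1 exon block of 255 bases, had no count. That does not show that the parent gene is silent.

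Between 16 and 6 weeks the unoperated hearts showed no called change in the family. Of 41 features tested none was called by edgeR, DESeq2 or limma-voom, where edgeR called 2.51% of all 10394 features, 1.32% higher and 1.19% lower. At an unadjusted p under 0.05 edgeR had 8 higher and 1 lower. The share of all features at that threshold was not counted, so these numbers show no trend of the family. The median log2 change was 0.03, against -0.01 over all features, and the ages overlapped for every feature, where 1.34% of all features were free of overlap with 16 weeks higher and 0.702% with 16 weeks lower. Rpl37 had 12.5, 17.1 and 24.7 CPM at 16 weeks (lowest, median, highest) and 4.07, 11.1 and 15.5 CPM at 6 weeks, a log2 change of 0.69 ± 0.24 with the smallest adjusted p of the family (edgeR adjusted p = 0.137). Rps2 had 10.2, 13.8 and 25.9 CPM at 16 weeks and 3.75, 8.28 and 13.9 CPM at 6 weeks (0.83 ± 0.30, edgeR adjusted p = 0.164). For Rpl4 the log2 change was -0.21 ± 0.08 and for Rpl8 0.07 ± 0.07, neither called. The low depth of these libraries leaves the low genes of the family with wide errors, so a p above the threshold does not show that the ages are alike.

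Comparing TAC with sham hearts asks which of these messengers change after 4 weeks of pressure overload. Of 68 features tested, 35 were higher and 1, Rps25, was lower in TAC hearts, with 32 not called. Among all 14555 features tested, 38% were called, 19.6% higher and 18.4% lower. The median log2 change of the family was 0.48, against 0.00 over all features, and the groups did not overlap for 40 features that were higher and 1 that was lower (21.3% and 14.4% of all features). Large-subunit features were higher in 19 of 40 (median 0.48), small-subunit features without Rps6kl1 were higher in 16 and lower in 1 of 27 (median 0.57). Among the 26 features that averaged at least 20 CPM over all libraries, 17 were higher, with a median of 0.46. Without the 4 sham and TAC libraries that go against their sex label, 33 were higher and 2 lower of 68, with a median of 0.54, where 17.7% and 16.4% of all features were called.

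Rps19 (mm9 chr7:25669390-25674825), the gene most often mutated in human Diamond-Blackfan anaemia, had 14.7, 17.3, 17.0 and 14.2 CPM in TAC hearts, against 4.99, 6.10, 4.48 and 6.55 CPM in sham hearts. All TAC libraries stood above all sham libraries, with a log2 change of 1.46 ± 0.15 (edgeR adjusted p = 3.4e-06), although 43.2% of its exonic bases are its own. Rpl38 (mm9 chr11:114529838-114533645), whose loss in Tail-short mice alters translation of Hox messengers, had 22.7, 28.2, 23.6 and 17.0 CPM in TAC hearts and 9.87, 8.18, 8.65 and 6.86 CPM in sham hearts. Its log2 change was 1.41 ± 0.16 (edgeR adjusted p = 8.22e-06), again without overlap. Rpl38 did not pass in E13.5 hearts, with log2 changes of 0.08 ± 0.13 against unoperated adults and -0.01 ± 0.16 against sham.

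Rps2, at the messenger entry, had 19.9, 24.0, 23.4 and 18.9 CPM in TAC hearts and 9.20, 9.33, 8.04 and 9.31 CPM in sham hearts (log2 change 1.22 ± 0.12, edgeR adjusted p = 3.06e-06). Rps27a, made as a fusion with ubiquitin, had 6.14, 10.7, 6.02 and 5.46 CPM in TAC hearts and 2.88, 3.34, 2.63 and 2.76 CPM in sham hearts (1.24 ± 0.23, edgeR adjusted p = 0.000617). Rpl36 had 8.04, 14.8, 10.96 and 6.97 CPM in TAC hearts and 5.21, 4.49, 3.40 and 4.09 CPM in sham hearts (1.20 ± 0.23, edgeR adjusted p = 0.00107). In none of these genes did the groups overlap. Rps16 had the largest called change, 1.68 ± 0.46 (edgeR adjusted p = 0.0291), with 30.5, 33.1, 19.3 and 13.59 CPM in TAC hearts and 13.53, 6.45, 4.95 and 4.09 CPM in sham hearts. Its lowest TAC and highest sham libraries nearly met, and the call was lost without TAC 1, TAC 2, sham 2, sham 3 or sham 4 (edgeR adjusted p from 0.0633 to 0.0716), without the libraries against their sex label (1.83, edgeR adjusted p = 0.116), and with no filter (edgeR adjusted p = 0.0605).

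Among the abundant genes, Rpl8 had 603, 682, 657 and 558 CPM in TAC hearts and 418, 382, 394 and 376 CPM in sham hearts, a log2 change of 0.63 ± 0.07 (edgeR adjusted p = 1.1e-05). Rps15, a protein of the small-subunit head, had 321, 427, 350.1 and 303 CPM in TAC hearts and 225, 226, 233 and 208 CPM in sham hearts (0.61 ± 0.09, edgeR adjusted p = 0.00018). Both were free of overlap. Rpl4 did not follow: it had 369, 414, 388 and 387 CPM in TAC hearts and 378, 366, 469.7 and 399 CPM in sham hearts, with overlapping groups and a log2 change of -0.09 ± 0.08 (edgeR adjusted p = 0.389). Rps3 had 298, 342, 332 and 308 CPM in TAC hearts and 277, 278, 282 and 289 CPM in sham hearts, which did not overlap but did not pass the test (0.14 ± 0.06, edgeR adjusted p = 0.0875). Rps26, described above for the E13.5 hearts, was higher in TAC hearts by 0.57 ± 0.09 (118, 129.8, 110.3 and 99.7 CPM in TAC hearts against the sham values given above, edgeR adjusted p = 0.000182).

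**Figure D5:**
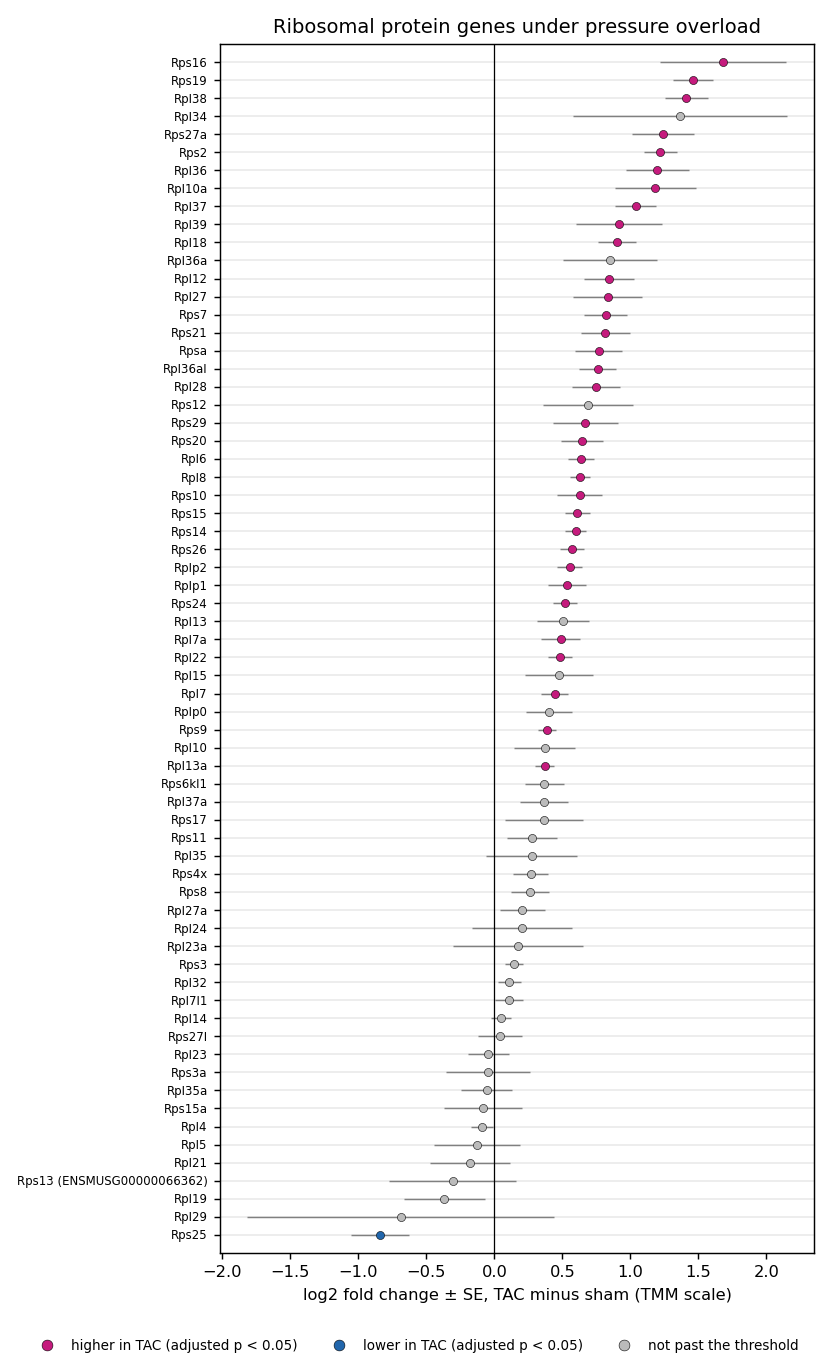
Log2 fold change of the tested features in TAC against sham hearts, in order of size, with standard errors as bars and colour for features past an adjusted p of 0.05. Changes run from -0.84 for Rps25, the only feature called lower, to 1.68 for Rps16, called higher, and Rpl4 stands at -0.09.

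Within the stalk, all TAC libraries lay above all sham libraries for each of the 4 genes. Rplp2 (mm9 chr7:148633269-148637484) had 61.4, 60.4, 60.4 and 53.8 CPM in TAC hearts and 45.1, 40.8, 33.4 and 36.6 CPM in sham hearts (log2 change 0.55 ± 0.09, edgeR adjusted p = 0.000223). Rplp1 was higher by 0.53 ± 0.14 (edgeR adjusted p = 0.0136) and Rpl12 by 0.84 ± 0.18 (edgeR adjusted p = 0.00193). Rplp0 had 487, 452, 504 and 443 CPM in TAC hearts, above 277, 427, 421 and 266 CPM in sham hearts, but its log2 change of 0.40 ± 0.17 did not pass (edgeR adjusted p = 0.102). Without the libraries against their sex label it was 0.75 (edgeR adjusted p = 1.1e-05), and it passed without sham 2 or sham 3 alone (edgeR adjusted p = 0.0366 and 0.0436), by DESeq2 (adjusted p = 0.0244) and by limma-voom (adjusted p = 0.0256). Of the genes linked to Diamond-Blackfan anaemia, 8 of 13 tested were higher (61.5%), against 51.5% of the whole family, a difference that was not tested.

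Rps25, the only gene called lower, had 3.79, 3.52, 4.84 and 3.25 CPM in TAC hearts and 6.87, 4.84, 9.43 and 6.14 CPM in sham hearts, where the highest TAC library nearly equalled the lowest sham library. Its log2 change was -0.84 ± 0.21 (edgeR adjusted p = 0.00581). Sham hearts had the highest mean Rps25 and the lowest mean Rps16 of the 4 adult groups, which was tested only against TAC. Rpl39 was called higher in TAC hearts (0.91 ± 0.32, edgeR adjusted p = 0.0319), where TAC libraries had 1.45, 1.81, 2.47 and 2.09 CPM and sham libraries 1.44, 0.921, 1.08 and 0.614 CPM. The groups just avoided overlap, and the gene lost the call without TAC 3, TAC F1, sham 2 or sham 4 (edgeR adjusted p from 0.0578 to 0.115), and without the libraries against their sex label (edgeR adjusted p = 0.291). It was not called by DESeq2 (adjusted p = 0.0773) or with all 27 libraries in 1 fit (edgeR adjusted p = 0.182).

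Short genes in general were higher in TAC hearts, unlike in the embryonic comparisons. Coding genes outside the family with under 1000 exonic bases had a median log2 change of 0.22, with 33.4% called higher, and family members of that length had a median of 0.55, with 13 higher and 1 lower of 24. From 1000 to 3000 bases the median was 0.14 outside the family, with 29.7% called higher, and 0.48 within it, with 18 higher of 34. Above 3000 bases it was 0.01, with 19.3% called higher, and 0.14 within, with 4 higher of 9. The part of transcript length in the change of the family was not tested. Features with at least 50% unique windows were higher in 28 of 47, and those with fewer were higher in 7 and lower in 1 of 20. With CTTTC or CTTTT near the start, 12 were higher and 1 lower of 23 (median 0.55), and without these letters 13 were higher of 27 (median 0.40).

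Markers of other cells moved with the operation too. Of 10 fibroblast markers 7 were higher in TAC hearts, summing to 2628.2 to 5168.6 CPM in TAC hearts and 1270.5 to 1411.6 CPM in sham hearts, led by Postn at 2.49 ± 0.31 on the log2 scale. Of 10 macrophage markers 5 were higher, at a summed 656.1 to 924.4 CPM in TAC hearts and 475.0 to 530.3 CPM in sham hearts, and 1 of 9 endothelial markers was higher. The markers of dividing cells summed to 16.7 to 45.6 CPM in TAC hearts and 19.0 to 25.5 CPM in sham hearts. No marker of these lists was at 0 in either group. Their part in the change of the ribosomal protein genes was not tested.

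Other genes of translation were followed as lists. Of 19 translation factors and partners with TOP messengers, 11 were higher and 3 lower of 18 tested in E13.5 against unoperated adult hearts, led by the elongation factor Eef1a1 (log2 change 3.32) and the poly(A)-binding protein Pabpc1 (2.78). Against sham 9 were higher and 5 lower of 19. In TAC hearts 10 were higher and 1 lower of 19, among them Fau, which carries a small-subunit protein, at 1.14 (edgeR adjusted p = 3.15e-05), while Naca, a chaperone of new chains, was lower at -0.80 (edgeR adjusted p = 3.14e-05). Of all features, 44.1%, 40.7% and 19.6% were called higher in these 3 comparisons. Gnb2l1 had log2 changes of 0.79 and 0.67 in E13.5 hearts against unoperated adults and sham, -0.16 at 16 against 6 weeks and 0.25 in TAC hearts. Fau and Gnb2l1 belong to a list of 3 ribosomal components outside the rule, which did not move as 1. In E13.5 against unoperated adult hearts 2 of the 3 were higher and 1 was lower, at -1.65. Against sham 1 was higher and 2 were not called, and in TAC hearts all 3 were higher.

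Of 14 regulators of TOP messengers and ribosome production, 6 (42.9%) were higher and 4 lower in E13.5 against unoperated adult hearts, near the 44.1% of all features called higher, and 2 (14.3%) and 6 against sham, where 40.7% of all features were higher. Mycn was higher by 3.33 ± 0.18 and Myc, a driver of ribosome production, by 2.96 ± 0.13, while Tsc2, an inhibitor of mTOR, was lower (-0.79 ± 0.06), all called by edgeR. In TAC hearts 3 (21.4%) were higher and 2 lower, near the 19.6% of all features called higher, and the called changes ran from Eif4ebp2 at -0.39 ± 0.07 to Rheb at 0.35 ± 0.09. Of 5 genes of the p53 response, 2 were higher and 3 lower in E13.5 hearts against unoperated adults, with Ccng1 at -3.03 ± 0.13 and Trp53 at 1.65 ± 0.11. In TAC hearts 2 were higher and 1 lower, led by Cdkn1a at 1.64 ± 0.15 (edgeR adjusted p = 1.41e-05).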

How the data were processed

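Raw read counts per feature were deposited by the authors for 27 libraries, mapped to mouse build mm9, and the members and gene lists used here were chosen with earlier results of these data known. Per the submitters' processing notes, Bowtie, TopHat 1.3.0, HTSeq, DESeq and edgeR were named, without their roles. The sources used here give neither read length nor the treatment of reads that fit several places. Every column of the summary table equalled its library's own file.

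Each comparison was fitted on all features with edgeR 4.0.16 (R 4.3.3), TMM scaling, filterByExpr (minimum count 10, minimum total 15), robust quasi-likelihood tests and Benjamini-Hochberg adjustment over all features tested. Standard errors are the log2 fold change over the root of the F statistic. CPM were scaled by TMM over all 27 libraries, so ratios of CPM can differ from fitted changes. Paralog ratios used counts plus 0.5 and exact two-sided permutation tests. The fits were tested on simulated data. Named genes were the up to 6 called members with the largest and the up to 6 with the smallest change in a comparison, paralog pairs, the stalk and 5S particle genes, members with few own bases or no count, extremes per kilobase, Rps6 and Rps19. Rps3, Rpl28, and Rpl37 and Rps2 at 16 against 6 weeks were added after their values were seen. Some genes that the rule names are not reported here by name and are left out of the plots, though they stay in all counts and medians.

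Alternatives were other scalings, DESeq2 1.42.0, limma 3.58.1 (voom), no filter, all libraries in 1 fit, no mitochondrial features, a replicate block, leaving out each library, leaving out libraries against their sex label, and, added after the data were seen, library totals. No pairing by replicate number was detected: residuals of same-numbered samples correlated at -0.06 to 0.13, with 1 pair of E13.5 and sham above 0.1. Only 3 pairs of TAC and sham could be examined, and low correlations do not show that samples were prepared apart. Replicate numbers do not tell whether each library came from a separate animal, so p-values measure the spread between these libraries. Unique windows were 50-base stretches of GENCODE M21 coding transcripts searched on both strands of all GENCODE M21 transcripts. Start windows are RefSeq GRCm38.p6, and all other coordinates are mm9. Plots and summaries used Python 3.11.15 with pandas 2.3.3, scipy 1.17.1 and matplotlib 3.10.9.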

Additional observations from a re-analysis of the deposited data

Results flagged for a closer look

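In 210 groups of 4 to 7 libraries that were examined (the family's share and the named genes, by group), 8 had 1 library farther from the rest than Dixon's test allows at the 95% level. Chance alone flags about 1 in 20 groups, more than the number found. Library 1 at 6 weeks, which goes against its sex label, had a family share of 0.330% of all counts, with the others at 0.286% to 0.302%. Rpl28 had 10.7 CPM in library 6 at 6 weeks, which goes against its sex label too, with the others at 7.15 to 8.26 CPM. Rpl39 had 1.99 CPM in library 2 at 6 weeks, with the others at 0.459 to 1.02 CPM. Rpl37a had 14.99 CPM in E13.5 library 1, with the others at 9.98 to 10.96 CPM. In the TAC group, Rplp2 had 53.8 CPM in the library labelled female (F1), with the others at 60.4 to 61.4 CPM. The same library had 1.04 CPM of Rpl22l1, with the others at 0.107 to 0.112 CPM. Rps27a had 10.7 CPM in TAC 2, with the others at 5.46 to 6.14 CPM. Rps2 had 8.04 CPM in sham 3, with the others at 9.20 to 9.33 CPM.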

How the results depend on the processing

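Counts of called members kept to within 1.5 times, and medians to within the spread between replicates, under every alternative except these. For E13.5 against unoperated adults, the median moved to 1.09 with upper-quartile scaling, 1.61 with library totals, 1.20 with no filter and 0.85 against 16 weeks alone, and 2 were lower with library totals. For E13.5 against sham, it moved to 0.86, 1.52 and 0.79 with the same first 3 settings and to 0.76 with all 27 libraries in 1 fit, and 1 was lower with library totals. The median over all features moved as well, to 0.19 and 0.28 with upper-quartile scaling and 0.71 and 0.95 with library totals, for unoperated adults and sham. Between 16 and 6 weeks, 3 were higher and 1 lower with no filter, and 1 higher with all libraries in 1 fit. For TAC against sham, 2 were lower with no filter and without the libraries against their sex label. Signs reversed for E13.5 against sham in Rps9 (0.0030) with upper-quartile scaling, in Rps25 (0.0417), Rps21 (0.28), Rps9 (0.67), Rplp2 (0.80) and Rpl38 (0.82) with library totals, and in Rpl22l1 (-1.25) with the replicate block. The causes were not tested. Leaving out 1 library at a time gave 44 to 49 higher and 5 lower members against unoperated adults, 47 to 52 and 3 to 6 against sham, 0 to 1 higher at 16 weeks, and 31 to 35 higher and 1 to 2 lower in TAC hearts. The Rpl7l1 to Rpl7 difference against sham ran from -0.42 to -0.31, and that of Rpl22l1 to Rpl22 at 16 weeks from -2.06 to -1.47. The latter passed without library 6 at 6 weeks (exact permutation, adjusted p = 0.0433) or library 4 at 16 weeks (adjusted p = 0.0173). Both were adjusted only over the comparisons that hold the library left out. They cannot be set beside the main adjusted p of 0.0779, from 12 exact permutation tests. Rpl22l1 had a median of 0 CPM at 16 weeks, so its ratio there rests on very few reads. With the replicate block, 46 were higher and 5 lower against unoperated adults, 50 and 4 against sham, and 33 and 1 in TAC hearts. Of all features the block called 43.3% higher and 38.8% lower against unoperated adults, 38.6% and 34.4% against sham, and 13.2% and 12% in TAC hearts. Among named genes the block left Rps9 (-0.11, edgeR adjusted p = 0.155) and Rpl36a (0.49, edgeR adjusted p = 0.123) uncalled in E13.5 hearts against sham and Rpl39 (0.66, edgeR adjusted p = 0.228) in TAC hearts, and called Rplp0 higher in E13.5 hearts against sham (0.36, edgeR adjusted p = 0.0212). Over all features the block called 1926 higher and 1749 lower in TAC hearts, where 2847 and 2681 were called without it. Without the libraries against their sex label, calls of named genes stayed the same in 90 cases, were lost in 6 and gained in 2. Those lost in E13.5 hearts against sham included Rpl6 (0.17, edgeR adjusted p = 0.154) and Rpl36a (0.50, edgeR adjusted p = 0.17). The lower depth of the unoperated adults limits what can be said of low genes there.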
